A study of Mus musculus with 14 samples.

Results

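The 10 genes described here are effectors and sensors of the type I interferon response: Ddx58, Ifih1, Ifit1, Ifit2, Ifit3, Isg15, Oas1a, Oasl2, Rsad2 and Usp18. They were chosen by name, each symbol was matched to its Ensembl gene identifier in the count table, and all 10 were found among the 37680 genes listed and among the 15127 with enough counts to be tested. The libraries are poly(A) RNA-seq of epithelium that had been shaken off the mouse colon in EDTA, from adult mice of a C57/BL6-enriched background. The groups compared were WT mice kept on water (n = 4), Smad4 KO mice on water (n = 4), WT mice given 2.5% dextran sulphate sodium (DSS) in the drinking water for 3 days (n = 3) and Smad4 KO mice given the same (n = 3). DSS is a sulphated polysaccharide that injures the colonic epithelium. In the KO mice a tamoxifen-inducible Cre recombinase under the villin promoter, which is active in intestinal epithelial cells, deletes floxed Smad4, and other cell types keep the gene. The study's scheme draws tamoxifen for the KO mice alone, so that tamoxifen and genotype cannot be told apart here. The labels do not say whether each library came from a separate mouse, and p-values measure the spread between these libraries.

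The pathway works in steps. RIG-I, the product of Ddx58, and MDA5, the product of Ifih1, bind viral RNA in the cytosol and signal through the adaptor MAVS to the transcription factors IRF3 and IRF7, which switch on interferon genes. Secreted type I interferon binds its receptor IFNAR, type III interferon binds IFNLR, and both act through JAK kinases and a transcription factor complex on a DNA sequence called the interferon-stimulated response element (ISRE) near the effector genes. Gut epithelial cells are known to respond strongly to type III interferon, and a low level of interferon-stimulated genes is known in the healthy gut.

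The sequences around the gene starts show how the interferon response element is placed in these genes. RefSeq promoter sequence, 250 bases before and 50 bases after a transcript start, was at hand for 9 of the 10 genes, from the RefSeq annotation of GRCm38.p6, and each window was found once, letter for letter, in mm9, the build to which the reads were aligned. The ISRE letters GAAANNGAAA, searched on both strands, occurred in the windows of 7 of the 9 genes, against 3.99% of 27025 genes with a window in the same annotation. Ifit1 and Ifit3 had 2 matches each, Isg15 had 3 that overlap, Oas1a had 2 that overlap, and Rsad2, Ddx58 and Ifih1 had 1 each. Ifit2 (in both of its windows) and Oasl2 had none, which says only that these letters are not there. The stretches from 200 to 21 bases before the start are shown for Isg15, with the densest matches, for Ifit1 and Ifit3, with like matches, and for Ifit2, of the same family and chromosome without a match. Capitals mark the matched letters, which read as the reverse complement where the match is on the other strand, and each sequence reads 5′ to 3′ on the gene's own strand.
Isg15 (mm9 chr4:155574948-155575127, minus strand): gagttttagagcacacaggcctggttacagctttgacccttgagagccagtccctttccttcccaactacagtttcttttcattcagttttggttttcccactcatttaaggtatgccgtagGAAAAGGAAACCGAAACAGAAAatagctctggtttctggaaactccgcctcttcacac
Ifit1 (mm9 chr19:34715179-34715358, plus strand): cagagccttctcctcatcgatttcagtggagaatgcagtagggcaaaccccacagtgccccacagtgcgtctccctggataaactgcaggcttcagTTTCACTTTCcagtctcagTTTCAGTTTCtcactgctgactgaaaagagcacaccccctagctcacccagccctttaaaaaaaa
Ifit3 (mm9 chr19:34657819-34657998, plus strand): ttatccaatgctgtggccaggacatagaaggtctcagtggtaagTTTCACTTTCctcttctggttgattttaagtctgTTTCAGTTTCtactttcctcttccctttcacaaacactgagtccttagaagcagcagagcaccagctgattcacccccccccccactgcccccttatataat
Ifit2 (mm9 chr19:34624984-34625163, plus strand): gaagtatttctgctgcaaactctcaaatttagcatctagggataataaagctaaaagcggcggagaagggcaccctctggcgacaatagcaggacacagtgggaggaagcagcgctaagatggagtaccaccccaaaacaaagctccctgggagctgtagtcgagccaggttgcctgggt

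**Figure D1:**
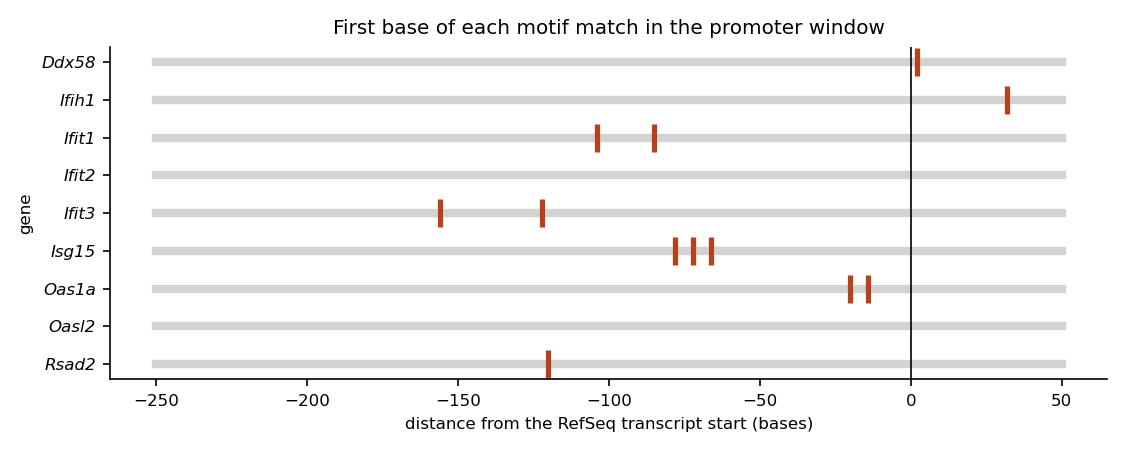
Grey bars are the promoter windows of 9 genes, the horizontal axis is the distance in bases from the RefSeq transcript start, and each red tick is the first base of a motif match. The matches of Isg15, Ifit1, Ifit3 and Rsad2 lie upstream of the start, from 156 to 66 bases before it, and Ifit2 and Oasl2 have no tick.

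The genes lie on 6 mouse chromosomes in mm9 (GENCODE M1). Ifit2 (chr19:34625184-34650909), Ifit3 (chr19:34658021-34663221) and Ifit1 (chr19:34715361-34724499) lie in one stretch on the plus strand, with Ifit paralogs between the last pair. Isg15 (chr4:155573533-155574927) and Ddx58 (chr4:40150806-40186861) are on the minus strand of chromosome 4. Oas1a (chr5:121346265-121357536, minus strand) and Oasl2 (chr5:115346943-115362243, plus strand) share chromosome 5. Rsad2 is at chr12:27127618-27141317 on the minus strand, Usp18 at chr6:121195924-121220934 on the plus strand and Ifih1 at chr2:62433850-62484312 on the minus strand.

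Total counts ranged from 12882827 to 26087231 per library. Levels are given as CPM, the count of a gene relative to the total of its library after TMM scaling. Smad4 was at 118 to 159 CPM in WT water and 170.2 to 182 CPM in WT DSS, and at 35.1, 37.0 and 46.8 CPM in KO water replicates 4, 2 and 3 and 40.4 to 43.9 CPM in KO DSS. The library labelled KO water replicate 1 had 158 CPM, a WT level, and it is kept under its label. Values without it are given for some of the results. Mitochondrial genes held 21.4% to 32.8% of the counts in WT water replicates 3 and 4 and KO water replicate 4, and at most 8.23% in the other 11 libraries. Epithelial marker genes summed to 20014 to 31752 CPM over the 14 libraries, leukocyte markers to 36.6 to 98.3 CPM and stromal markers to 7.51 to 35.9 CPM.

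All 10 genes were expressed in every library, with raw counts from 34 (Rsad2) to 2619 (Oasl2), so that none was at the floor of the assay. Per kilobase of exon (RPKM, mean ± SD over the 14 libraries), the order of levels was Oas1a (41.8 ± 7.72), Isg15 (34.6 ± 18.6), Oasl2 (21.4 ± 8.89), Ifih1 (13.7 ± 2.54), Ifit1 (10.4 ± 5.87), Ifit2 (7.64 ± 3.29), Usp18 (6.30 ± 2.32), Ddx58 (4.52 ± 0.731), Ifit3 (4.40 ± 2.85) and Rsad2 (1.57 ± 0.678). Every neighbouring pair in that order differed by less than the sum of its SDs. Reads of 3 genes may be split with close copies: stretches of 75 bases that are identical elsewhere made up 47.2% of Oas1a (shared with Oas1g), 41.1% of Ifit3 (with Ifit3b) and 5.19% of Ifit1 (with Ifit1bl2). The other 7 genes shared none, and no member overlapped another gene's exons. The genes of interferons themselves were almost silent: of 19 ligand genes, Ifnb1 and 12 others had no count in any library, and the total over all 19 was 0 to 8 counts per library.

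After DSS, the fitted level of every one of the 10 genes was lower in the Smad4 KO than in WT epithelium, with the largest differences at Isg15, Oasl2, Rsad2 and Ifit1, yet none passed the test over all genes, and the value of Ifit3 turned to 0.32 without WT replicate 1 and to 0.14 without KO replicate 1. Over all libraries edgeR's quasi-likelihood test with Benjamini-Hochberg adjustment called 0 of the 10 genes, where it called 0.0132% of 15127 genes. At an unadjusted p under 0.05 there were 3 of the 10 (Oasl2, Isg15 and Rsad2) and 670 of all genes tested. The median log2 fold change of the 10 genes was -0.25, and over all genes tested it was -0.00058, with 7573 of 15127 genes lower. Single libraries moved the median of the 10 genes in both directions. It was -0.20 without WT DSS replicate 1, -0.49 without WT DSS replicate 2, -0.43 without KO DSS replicate 2 and -0.40 without KO DSS replicate 3. The groups did not overlap for 2 of the 10 genes (Isg15 and Oasl2, both lower in the KO), beside 11.4% of all genes whose KO libraries all lay below WT. In bulk RNA, fewer expressing cells and less RNA per cell cannot be told apart.

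Isg15 encodes a ubiquitin-like protein that is attached to other proteins and is also secreted. Its level after DSS was 30.9, 17.4 and 31.4 CPM in WT replicates 1 to 3 and 9.26, 13.9 and 16.5 CPM in KO replicates 1 to 3. The highest KO library thus lay just below the lowest WT library. The log2 fold change was -1.01 ± 0.41 (SE), a 2.01-fold lower level in the KO (edgeR adjusted p = 0.999). The pairwise DESeq2 test of the 6 DSS libraries, which is the kind of test the study used, gave an adjusted p of 0.0028 for nearly the same fold change, and DESeq2 over all libraries gave 0.63.
On water, Isg15 was at 45.9, 32.0, 27.0 and 54.4 CPM in WT replicates 1 to 4 and at 18.96, 12.6, 13.1 and 42.6 CPM in KO replicates 1 to 4. KO replicate 4, one of the libraries with a high mitochondrial share, lay among the WT libraries and the other 3 lay below all of them. The fitted log2 fold change was -0.87 ± 0.36 (edgeR adjusted p = 0.12), and without KO replicate 4 it was -1.41 ± 0.29 (edgeR adjusted p = 0.0040). The fit without KO replicate 4 called 4104 of 15127 genes, beside 1276 with all libraries. Without KO replicate 1, the library with Smad4 at the WT level, the Isg15 value was -0.81 ± 0.40 (edgeR adjusted p = 0.20). Without the 3 libraries of high mitochondrial share it was -1.38 ± 0.29 (edgeR adjusted p = 0.012). The part of mitochondrial share or RNA quality in this was not tested.

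Oasl2 belongs to the oligoadenylate synthetase (OAS) family of double-stranded RNA sensors and had the smallest p of the 10 genes after DSS. It was at 109.7, 66.6 and 88.5 CPM in WT DSS replicates 1 to 3 and at 31.3, 48.2 and 58.1 CPM in KO DSS replicates 1 to 3. Again the groups did not overlap. The log2 fold change was -0.95 ± 0.28, a 1.93-fold lower level (edgeR adjusted p = 0.62), and the adjusted p was 0.00094 in the pairwise DESeq2 test and 0.20 in DESeq2 over all libraries. Among the 5 DSS libraries that share a name prefix (2 WT, 3 KO), the value was -0.94 ± 0.26 (edgeR adjusted p = 0.21). On water, Oasl2 was at 96.9, 93.2, 110.4 and 169 CPM in WT and 52.9, 60.6, 83.1 and 93.6 CPM in KO, where only the highest KO library reached the lowest WT library. The water difference was -0.69 ± 0.24 (edgeR adjusted p = 0.075), and it was -0.57 ± 0.25 (edgeR adjusted p = 0.16) without KO replicate 1. Leaving out KO replicate 4 instead gave -0.83 ± 0.25 (edgeR adjusted p = 0.027).
Oas1a, which makes oligoadenylates as messengers on sensing double-stranded RNA, differed less. After DSS it was at 83.1 to 109 CPM in WT and 75.9 to 87.1 CPM in KO, with a log2 fold change of -0.26 ± 0.17 (edgeR adjusted p = 0.999). On water the fold change was -0.41 ± 0.15 (edgeR adjusted p = 0.084), with 74.8 to 110.2 CPM in WT and 57.7 to 81.0 CPM in KO. Without KO replicate 4 it was -0.44 ± 0.16 (edgeR adjusted p = 0.049), and without KO replicate 1 it was -0.35 ± 0.16 (edgeR adjusted p = 0.17).

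**Figure D2:**
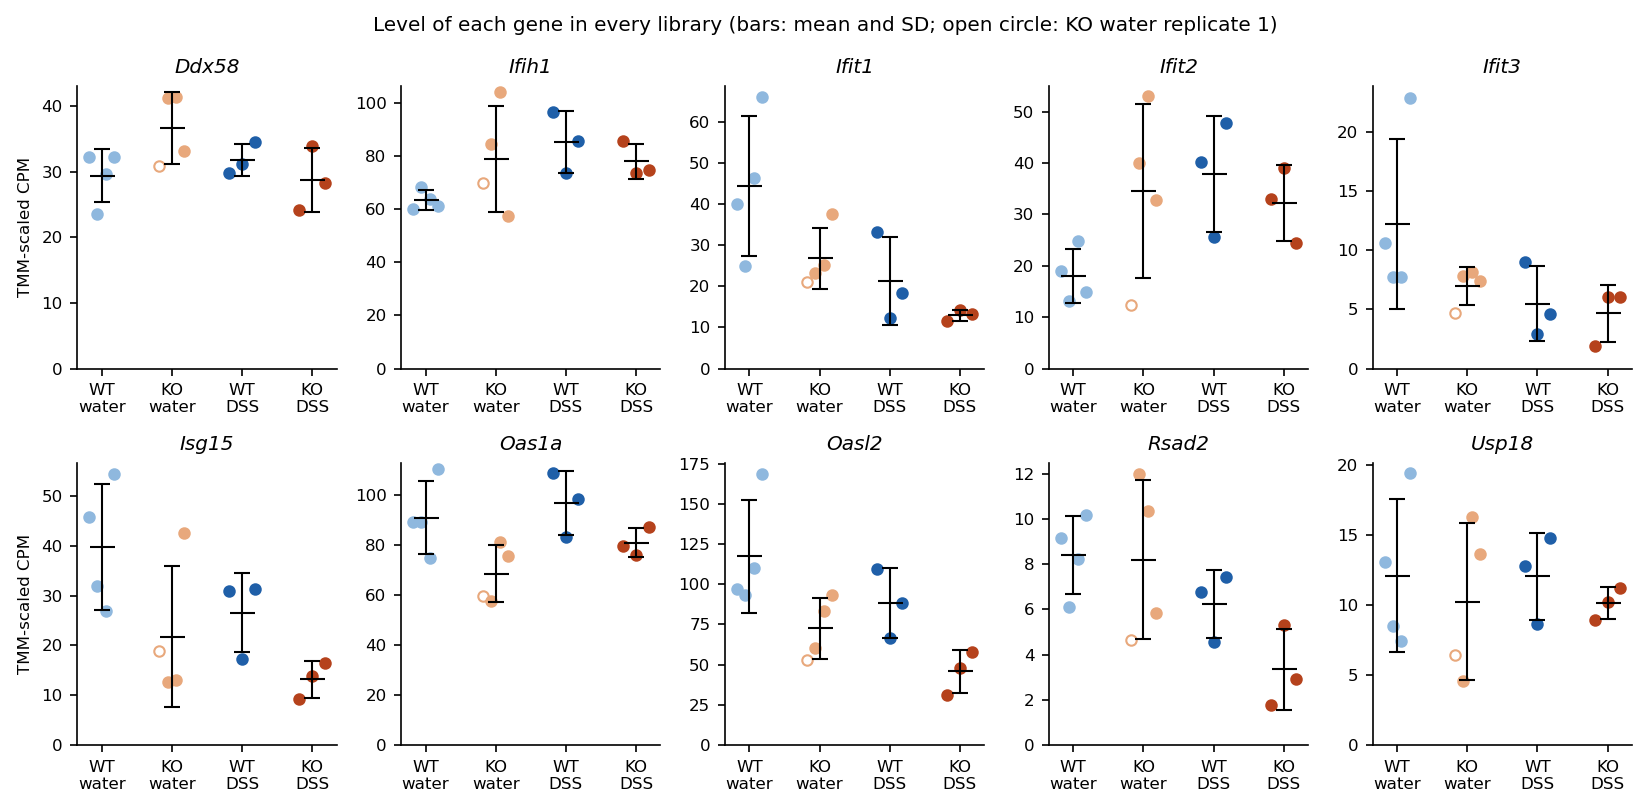
Each panel plots one gene's TMM-scaled CPM (vertical axis, from 0) in the 14 libraries by group, with the group mean and SD as bars and KO water replicate 1 as an open circle. The KO DSS libraries of Isg15 (9.26 to 16.5 CPM) and Oasl2 (31.3 to 58.1 CPM) lie below all WT DSS libraries, and Ifit2 has its lowest values in WT water and in KO water replicate 1.

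The 3 Ifit genes, whose products bind RNA and hold back its translation, differed in direction. Ifit1 was highest in WT water, at 40.2, 25.0, 46.5 and 66.1 CPM in replicates 1 to 4. It was at 21.2, 23.2, 25.3 and 37.6 CPM in KO water, at 33.2, 12.2 and 18.4 CPM in WT DSS and at 11.5, 14.2 and 13.2 CPM in KO DSS. The KO DSS libraries lay below all KO water libraries, the only such case among the 10 genes in that comparison, where 4.28% of all genes had every KO DSS library below every KO water library. The DSS-against-water log2 fold change was -1.05 ± 0.33 in WT (edgeR adjusted p = 0.13) and -1.05 ± 0.33 in the KO (edgeR adjusted p = 0.46). DESeq2 over all libraries gave an adjusted p of 0.039 in WT and 0.15 in the KO, and the pairwise DESeq2 test gave 0.037 and 0.0099. Over the alternative fits the value ran from -1.53 to -0.52 in WT and from -1.15 to -0.37 in the KO. No KO water library shares the name prefix of the KO DSS libraries. The 2 responses differed by 0.01 ± 0.47 on the log2 scale (edgeR adjusted p = 0.997). Between genotypes Ifit1 differed by -0.72 ± 0.30 on water (edgeR adjusted p = 0.12) and by -0.71 ± 0.35 after DSS (edgeR adjusted p = 0.999). The water value was -0.92 ± 0.31 without KO water replicate 4 (edgeR adjusted p = 0.041) and -0.62 ± 0.33 without KO water replicate 1 (edgeR adjusted p = 0.23).
Ifit3 was low throughout. WT water ran from 7.72 to 22.9 CPM, the top value being replicate 4, KO water from 4.66 to 8.19 CPM, WT DSS from 2.92 to 9.01 CPM and KO DSS from 1.88 to 6.09 CPM. All pairs of groups that were compared overlapped. Its log2 fold changes were -0.79 ± 0.43 for KO against WT on water and -1.14 ± 0.47 for DSS against water in WT (edgeR adjusted p = 0.23 and 0.19).

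Ifit2 had a higher fitted level in the KO on water. It was at 18.99, 13.1, 24.9 and 14.9 CPM in WT water replicates 1 to 4 and at 12.4, 40.0, 53.0 and 32.7 CPM in KO water replicates 1 to 4. KO replicates 2 to 4 all lay above the WT libraries, and the library labelled KO replicate 1, in which Smad4 was at the WT level, lay below them. That library was also the lowest of the water libraries for Ifit1, Ifit3, Oasl2 and Rsad2. Over all 4 KO libraries the log2 fold change of Ifit2 was 0.94 ± 0.34, a 1.92-fold higher level in the KO (edgeR adjusted p = 0.083). Without KO replicate 1 Ifit2 rose by 1.22 ± 0.26 on the log2 scale (edgeR adjusted p = 0.019). After DSS it was at 40.1, 25.6 and 47.7 CPM in WT and 33.0, 39.1 and 24.4 CPM in KO, which overlap, with a log2 fold change of -0.23 ± 0.39 (edgeR adjusted p = 0.999).
In WT, then, all 3 DSS libraries lay above all 4 water libraries for Ifit2, with a log2 fold change of 1.07 ± 0.36 (adjusted p = 0.14 in edgeR, 0.0054 in pairwise DESeq2 and 0.059 in DESeq2 over all libraries). In the KO the DSS response of Ifit2 was -0.10 ± 0.36 over all libraries and -0.38 ± 0.28 without KO water replicate 1 (edgeR adjusted p = 0.97 and 0.73). The difference between the responses of the 2 genotypes was -1.18 ± 0.52 (edgeR adjusted p = 0.64), the only one of the 10 with an unadjusted p under 0.05. For this difference edgeR called 0 of the 10 genes and 0.00661% of all genes tested.

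Rsad2, which encodes the antiviral enzyme viperin, had the lowest level per length. It was at 9.14, 6.12, 8.22 and 10.2 CPM in WT water, at 4.66, 12.0, 10.4 and 5.83 CPM in KO water, at 6.76, 4.57 and 7.45 CPM in WT DSS and at 1.78, 5.32 and 2.94 CPM in KO DSS. One KO DSS library, replicate 2, reached the WT DSS range. The log2 fold change after DSS was -0.90 ± 0.41, a 1.87-fold lower level in the KO (edgeR adjusted p = 0.999). On water it was -0.03 ± 0.34 (edgeR adjusted p = 0.96), and 0.16 ± 0.34 without KO replicate 1. The DSS response in the KO was -1.29 ± 0.39, a 2.44-fold lower level (edgeR adjusted p = 0.42), and -1.48 ± 0.38 without KO water replicate 1 (edgeR adjusted p = 0.32). Over the alternative fits it ran from -1.79 to -0.85, and no KO water library shares the name prefix of the KO DSS libraries. For this response the adjusted p was 0.097 in DESeq2 over all libraries, 0.26 in the pairwise DESeq2 test and 0.031 in a DESeq2 fit without that library, which was chosen after seeing the data.

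Of the sensors, Ifih1 was at 60.1, 68.4, 63.9 and 61.4 CPM in WT water, at 69.7, 84.5, 104 and 57.5 CPM in KO water, at 96.7, 73.5 and 85.9 CPM in WT DSS and at 85.7, 73.5 and 74.9 CPM in KO DSS. Like Ifit2, Ifih1 had every WT DSS library above every WT water library, and these are 2 of the 10 genes in a comparison where 12.8% of all genes had that order and 11.6% the opposite. Its log2 fold change for DSS in WT was 0.43 ± 0.17 (adjusted p = 0.18 in edgeR, 0.032 in pairwise DESeq2 and 0.15 in DESeq2 over all libraries). Between genotypes it was 0.32 ± 0.16 on water (edgeR adjusted p = 0.20). That value was 0.45 ± 0.14 without KO water replicate 4 (edgeR adjusted p = 0.028) and 0.37 ± 0.17 without KO water replicate 1 (edgeR adjusted p = 0.17). After DSS it was -0.13 ± 0.18 (edgeR adjusted p = 0.999).
Ddx58 ran from 23.5 to 41.5 CPM over the 14 libraries. Its group means were 29.4 ± 4.09 CPM (SD, n = 4) in WT water, 36.7 ± 5.47 (SD, n = 4) in KO water, 31.8 ± 2.46 (SD, n = 3) in WT DSS and 28.8 ± 4.90 (SD, n = 3) in KO DSS. The groups overlapped in all 4 comparisons. The log2 fold changes were 0.32 ± 0.15 for KO against WT on water and -0.35 ± 0.17 for DSS against water in the KO (edgeR adjusted p = 0.18 and 0.59).
Usp18, the protease that removes Isg15 from proteins and dampens signalling at the type I interferon receptor, overlapped between the groups of every comparison. It was at 7.41 to 19.5 CPM in WT water, 4.59 to 16.3 CPM in KO water, 8.64 to 14.8 CPM in WT DSS and 8.94 to 11.3 CPM in KO DSS. All of its log2 fold changes lay between -0.25 and 0.00, with standard errors of 0.37 to 0.56.

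**Figure D3:**
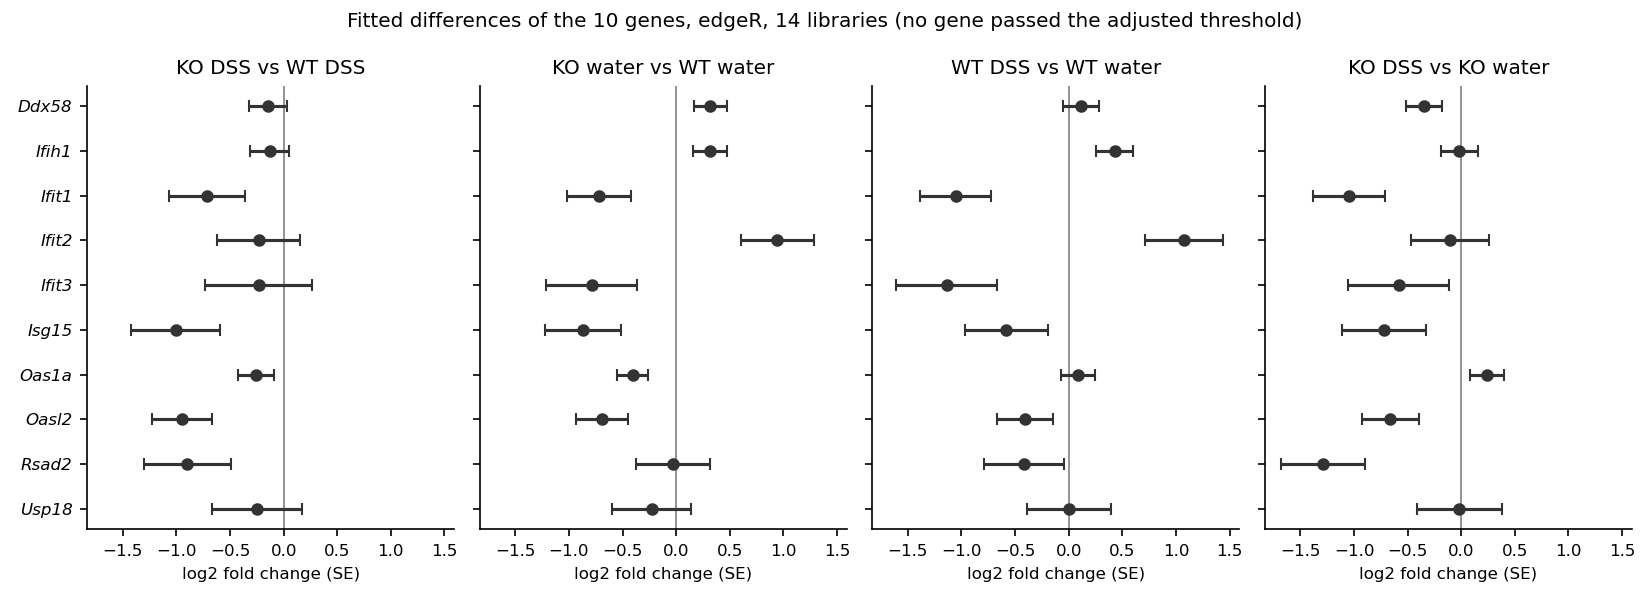
Points are the fitted log2 fold changes of the 10 genes (horizontal axis) in 4 comparisons, with standard errors as bars, and the vertical line is no change. All 10 points lie left of it for KO against WT after DSS (Ifit3 turned when WT or KO replicate 1 was left out), and on water Ifit2, Ddx58 and Ifih1 lie right of it, at 0.94, 0.32 and 0.32.

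On water, edgeR called 0 of the 10 genes and 8.44% of all genes, a share that ran from 4 genes without WT water replicate 4 to 4104 genes without KO water replicate 4. Of the 10 genes, 7 had a lower and 3 a higher fitted level in the KO, with a median of -0.32, against -0.01 over all genes tested, and 5 had an unadjusted p under 0.05 (4436 of all genes). That median was -0.12 without WT water replicate 4, -0.20 without KO water replicate 1 and -0.52 without KO water replicate 3. DESeq2 over all libraries called Oasl2 (adjusted p = 0.039) and Ifit2 (adjusted p = 0.037), in opposite directions, among 2583 genes called by that test on water. None of the 10 had groups that do not overlap, beside 5.2% of genes lower and 5.18% higher in all KO libraries. For DSS against water in WT, edgeR called 0 of the 10 and 0% of all genes (4 of the 10 and 3174 of all had an unadjusted p under 0.05, and DESeq2 over all libraries called 698 genes), with 5 members higher and 5 lower. In the KO it called 0 of the 10 and 0.0661% of all genes, with 9 of the 10 lower, a median of -0.47 beside -0.02 over all genes, and 3 of the 10 (1271 of all) with an unadjusted p under 0.05. That median was -0.22 without KO DSS replicate 1, -0.28 without KO water replicate 4 and -0.10 with the name prefix as a block. No KO water library shares the name prefix of the KO DSS libraries, so that prefix and DSS cannot be told apart within the KO. The comparisons share libraries, so that these values are not independent of each other.

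The rest of the pathway, taken from lists by role, gave few calls. None of the 12 receptor and transducer genes, all expressed, passed the test in any comparison. The most abundant was Ifngr1, a chain of the interferon-γ receptor, at a mean of 206 CPM in WT and 211 CPM in KO water. Among 14 tested sensors and adaptors, 2 fell in the KO on water and none after DSS, where 8.44% and 0.0132% of all genes were called. These were the transcription factors that drive interferon genes. Irf7 was at 164, 126, 146 and 313 CPM in WT water and 78.1, 39.0, 77.1 and 133 CPM in KO water, and it fell by 1.19 ± 0.32 on the log2 scale (edgeR adjusted p = 0.039). Irf3 fell by 0.70 ± 0.17 (edgeR adjusted p = 0.033), from 84.9 to 118 CPM in WT to 42.5 to 83.7 CPM in KO. Every KO library lay below every WT library, as for 5.2% of all genes. Without the library labelled KO replicate 1 the value of Irf3 was -0.71 (edgeR adjusted p = 0.045) and that of Irf7 -1.17 (edgeR adjusted p = 0.061). Leaving out single libraries ended the call of Irf7 in 11 of 14 cases and that of Irf3 in 4 of 14. Neither passed in the pairwise edgeR fit (edgeR adjusted p = 0.15 for each), which called 1 gene of all. Both passed in the pairwise DESeq2 test (adjusted p = 0.048 for Irf3 and 0.026 for Irf7), which called 690 genes.

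Of the 4 genes of Isg15 conjugation (Usp18 included), Uba7, the enzyme that activates Isg15, fell by 0.68 ± 0.20 on water (edgeR adjusted p = 0.047), and it was at -0.59 without KO replicate 1 (edgeR adjusted p = 0.091). Its call was lost in 11 of 14 fits with 1 library left out. Of 34 tested further antiviral effectors, 2 fell and 1 rose on water, a share close to the 8.44% of all genes called there. Ifi27 fell by 0.89 ± 0.20 (edgeR adjusted p = 0.026), from 38.03 to 76.5 CPM in WT to 23.7 to 37.0 CPM in KO, and it passed without KO replicate 1 too (edgeR adjusted p = 0.027). It did not pass without WT replicate 4, KO replicate 2 or KO replicate 3 (edgeR adjusted p = 0.084, 0.082 and 0.086). Nor did it pass with the name prefix as a block or in the pairwise edgeR fit (edgeR adjusted p = 0.057 and 0.15). That pairwise edgeR fit called 1 gene of all, and the pairwise DESeq2 test gave Ifi27 an adjusted p of 0.017. Its call was lost in 6 of 24 alternative fits. Ifi35 fell by 0.62 ± 0.17 and Slfn5 rose by 1.43 ± 0.42 (edgeR adjusted p = 0.042 and 0.047). Both were lost in 12 of 14 fits with 1 library left out. The most abundant gene of this list, Lgals3bp, a secreted glycoprotein, did not pass, at a mean of 258 CPM in WT and 293 CPM in KO water. In the same comparison Car1, a colonocyte marker, fell by 0.98 ± 0.25, and the stem cell marker Lgr5 rose by 0.92 ± 0.24 (edgeR adjusted p = 0.035 and 0.036). Of the 11 epithelial markers, 8 had a lower and 3 a higher fitted level in the KO, with a median of -0.19. The stromal markers Col1a2 and Dcn rose (log2 fold changes 3.398 and 3.29). Yet of 9 tested stromal markers 5 were higher and 4 lower, with a median of 0.05. Stromal markers summed to 9.003 to 21.4 CPM in WT and 7.51 to 35.9 CPM in KO water. Their part in the calls above was not tested.

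Close relatives of the members, which share their family but not their name, were looked at next. Of 10 tested paralogs, all 10 had a lower fitted level in KO than in WT after DSS, with a median of -0.52, though none passed the test, and 7 had every KO DSS library below every WT DSS library, as had 11.4% of all genes. Of the paralogs, Oas1g, Ifit3b and Ifit1bl2 share sequence with members, so that their reads are not fully separate. Oas3, a large OAS enzyme, was at 38.6, 13.8 and 34.9 CPM in WT DSS and 7.90, 11.6 and 13.1 CPM in KO DSS, with a log2 fold change of -1.42 ± 0.38 (edgeR adjusted p = 0.47). The most abundant paralog, Ifit1bl1, was at a mean of 198 CPM in WT DSS and 142 CPM in KO DSS, with a value of -0.48 ± 0.17 (edgeR adjusted p = 0.85). In the KO, Ifit1bl2 was the paralog that passed, falling by 1.53 ± 0.25 from water (6.02 to 9.25 CPM) to DSS (2.13 to 3.15 CPM) with edgeR adjusted p = 0.033, and 0.087 without KO water replicate 1. The call was lost in 8 of 14 fits with 1 library left out and under the name prefix block (edgeR adjusted p = 0.28), and no KO water library shares the prefix of the KO DSS libraries. In WT it was at 6.79 to 10.3 CPM on water and 4.43 to 4.60 CPM after DSS (log2 fold change -0.999 ± 0.24, edgeR adjusted p = 0.11). Of the other antiviral effectors, 28 of 34 had a lower fitted level in the KO after DSS (median -0.37, none called), and of the 14 sensors and adaptors 11. After DSS, leukocyte markers summed to 41.6 to 81.3 CPM in WT and 76.0 to 82.7 CPM in KO, and stromal markers to 8.14 to 9.89 CPM in WT and 16.2 to 20.2 CPM in KO. The part of other cells in these values was not tested.

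**Figure D4:**
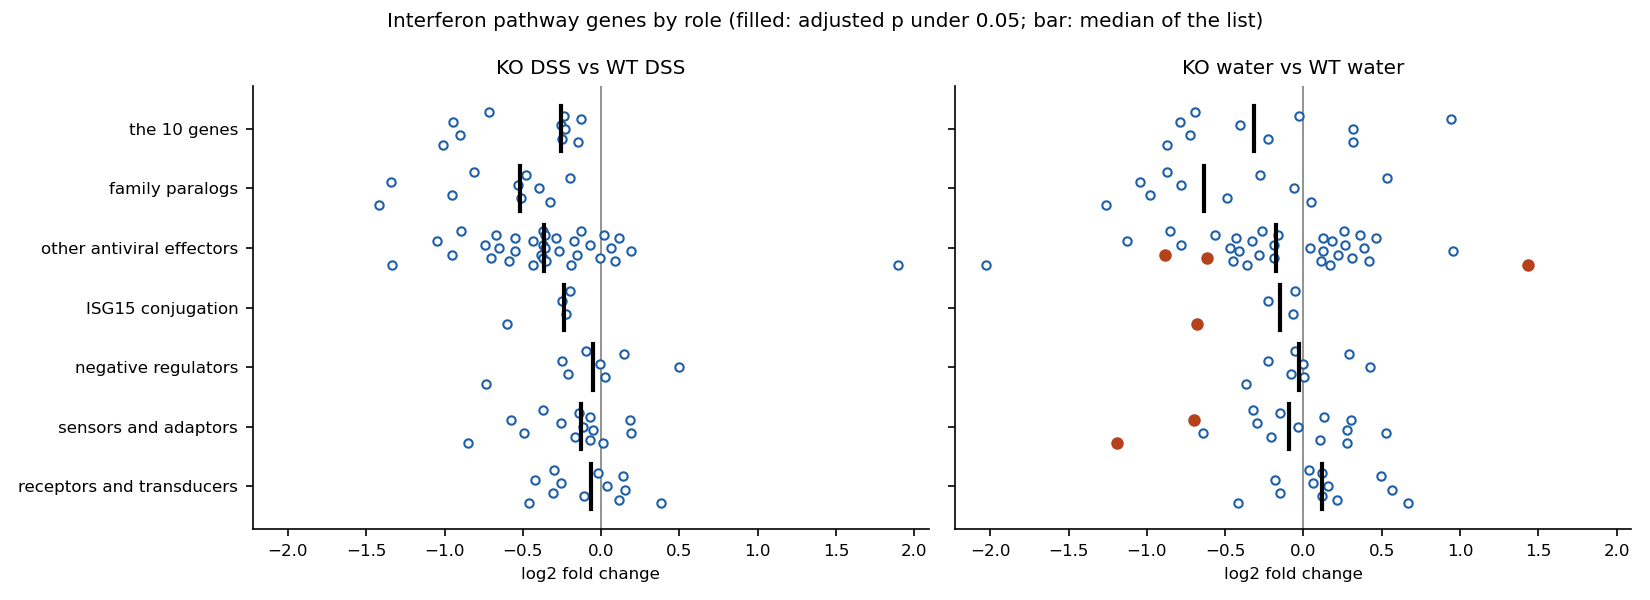
Each point is the log2 fold change (horizontal axis) of one tested gene, in rows by role, for the genotypes after DSS (left) and for the genotypes without DSS (right), with filled points for an adjusted p under 0.05 and a bar at the list's median. After DSS the medians run from -0.52 for the paralogs to -0.06 for the negative regulators and no point is filled, and on water 6 genes are filled.

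None of the 8 tested negative regulators of the pathway, Usp18 among them, passed in any comparison. Socs3, which is induced by STAT3-activating cytokines, was at a mean of 55.4 CPM in WT water and 103 CPM in WT DSS, and at 52.4 CPM in KO water and 146 CPM in KO DSS (log2 fold changes 0.90 and 1.48, edgeR adjusted p = 0.14 and 0.17). Samhd1, an enzyme that depletes deoxynucleotides, was at 122 CPM in WT DSS and 73.4 CPM in KO DSS (log2 fold change -0.73, edgeR adjusted p = 0.36).

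Over the 14 libraries the likeness among the 10 genes was uneven, described here by Pearson correlation of log2 CPM without a test, since libraries share group and depth. Of 45 pairs, 32 correlated above 0, with a median r of 0.27. The strongest pairs were Ifit1 and Oasl2 (r = 0.86), Isg15 and Oasl2 (0.85), Ifit1 and Ifit3 (0.85) and Ifit3 and Oasl2 (0.82). The most negative was Isg15 with Ifih1 (r = -0.60). Oasl2 was closest to the mean of the 9 others (r = 0.80), while Ifit2 (0.06) and Ifih1 (-0.13) were farthest from it. Outside the 10 genes, those most like the mean of the members over the 14 libraries were Oas3 (r = 0.92), the interferon-induced Ifi44 (0.87), Iqsec2 (0.82), Trim30a (0.81) and Pml (0.81). Oas3 was at 23.5 to 52.6 CPM in WT water and 13.7 to 27.5 CPM in KO water. WT water replicate 4, with the largest mitochondrial share, was the highest of the 14 libraries for Ifit1, Ifit3, Isg15, Oas1a, Oasl2 and Usp18.

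**Figure D5:**
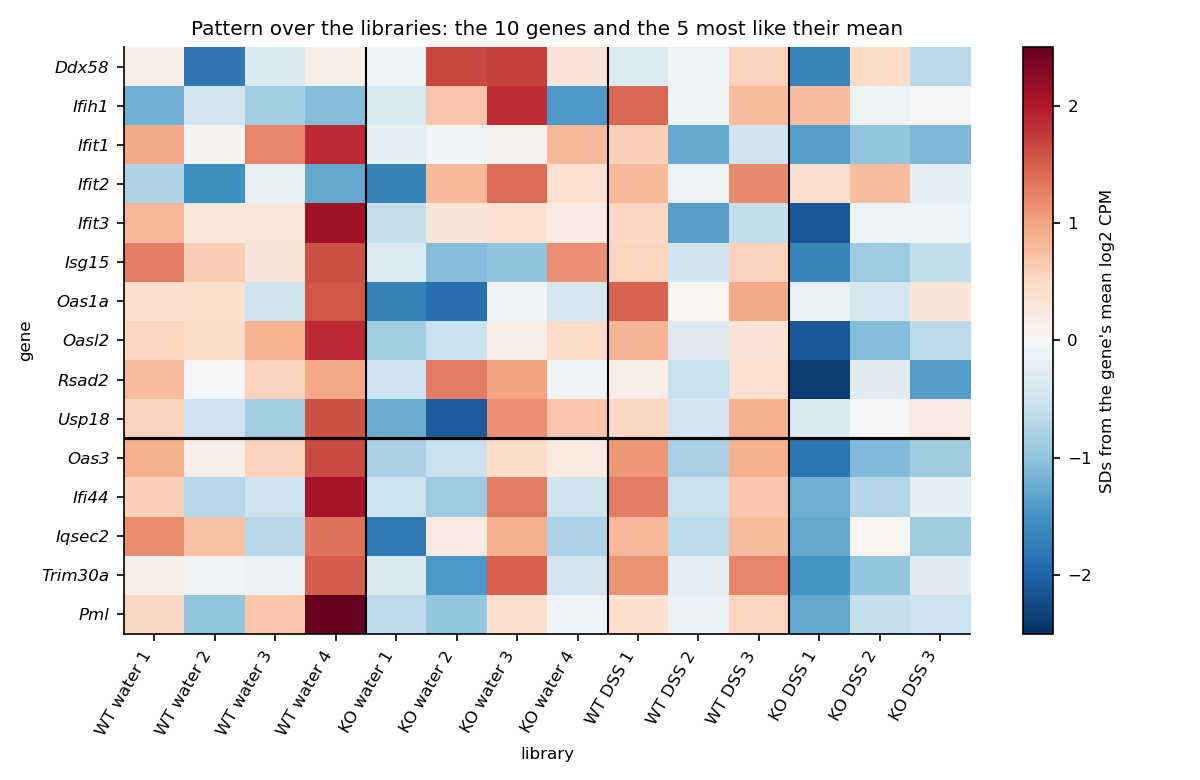
Rows are the 10 genes and, below the line, the 5 genes most like their mean. Columns are the 14 libraries by group, and colour is the number of SDs from the gene's own mean log2 CPM. WT water replicate 4 is red in most rows, the KO DSS libraries are blue for Ifit1, Isg15, Oasl2, Rsad2 and Oas3, and Ifit2 and Ifih1 run differently.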

How the data were processed

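Per the labels, the epithelium of mouse colon was sequenced in 14 libraries. The authors mapped reads to mm9 by HISAT2, assigned them to genes with featureCounts and deposited raw counts, unnormalised, for 37680 genes, 14001 of them without any count. A large mitochondrial share in a library leaves fewer counts for its other genes.

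Libraries were grouped by their labels. Genes reaching 10 counts in no fewer than 3 libraries (15127) entered edgeR 4.0.16 (R 4.3.3), with TMM scaling, a quasi-likelihood test of the 4 group means in one model of all 14 libraries, and Benjamini-Hochberg adjustment over all genes tested (threshold 0.05). Genotypes were compared within each treatment, treatments within each genotype, and the DSS responses between genotypes. Alternatives were DESeq2 1.42.0, pairwise fits, RLE scaling, no filter, blocks and left-out libraries. CPM and RPKM are TMM-scaled, with GENCODE M1 exon lengths. Named were all 10 members, genes of each list that were called or among its 4 most abundant, Smad4, and the 5 genes most like the members. The members and lists were chosen with earlier results of these data known. Usp18 also stands in 2 of the lists.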

Additional observations from a re-analysis of the deposited data

Results flagged for a closer look

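Among 46 groups of 4 libraries tested for a library that stands apart by Dixon's criterion (for the 10 genes, Smad4, the 5 genes most like them and the called genes of the pathway lists), 3 did, where chance gives about 1 in 20. Smad4 was at 158 CPM in the library labelled KO water replicate 1, with 35.1 to 46.8 CPM in the other 3 of its group. Ifi44 was at 17.6 CPM in KO water replicate 3, with 6.14 to 7.38 CPM in the others. Trim30a was at 24.2 CPM in WT water replicate 4, with 14.4 to 15.8 CPM in the others. None of the 10 members stood apart in this way in the water groups, and groups of 3 were not tested.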

How the results depend on the processing

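Of 1170 values of the 10 genes under alternatives, 1081 kept direction and side of the threshold, 26 passed it and 63 changed sign, in 11 of the 50 gene-by-comparison values. The cause was not tested for any of these. DESeq2 over all libraries called 49 genes after DSS, 2583 on water (2 members), 698 for DSS in WT (1 member), 67 for DSS in the KO and 8 for the difference of responses. DESeq2 on the groups compared called 492 genes after DSS (2 members), 690 on water, 1696 for DSS in WT (3 members) and 70 in the KO (1 member). edgeR on those groups alone called 114 after DSS, 1 on water, 0 for DSS in WT and 1 in the KO, with no member, so that the number of calls turns on the tool and on which groups share a spread. Without the filter edgeR called 7 genes after DSS, 1404 on water (2 members), 138 for DSS in WT, 15 in the KO and 2 for the difference. The name prefix as a block gave 1 after DSS, 2018 on water (1 member), 2 for DSS in WT, 1 in the KO with a median over the members of -0.10, and within one prefix 45 genes after DSS and 3 for DSS in WT were called.

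With the replicate number as a block (replicate block), edgeR called 2977 genes and 3 members on water (Oasl2, Isg15 and Oas1a), 2 after DSS, 0 for DSS in WT, 6 in the KO and 1 for the difference. The numbers showed no general pairing: of 19 pairs of libraries with the same number only 2 correlated above 0.1. Of the 14 libraries, 3 correlated best with their own number. The highest pair was WT water and KO water replicate 4 (r = 0.35, against at most 0.21 between unlike numbers). These libraries also share a name prefix and a high mitochondrial share.

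Chosen after seeing the data, DESeq2 without KO water replicate 1 called 67 genes after DSS, 2441 on water (1 member), 664 for DSS in WT (2 members), 80 in the KO (1 member) and 26 for the difference. edgeR without the 3 libraries over 20% mitochondrial counts, also chosen then, called 5 after DSS, 2382 on water (1 member), 35 for DSS in WT, 26 in the KO and 30 for the difference. The planned pairwise edgeR fit without KO water replicate 1 called 13 genes on water and 1 for DSS in the KO.

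Leaving out each library in turn, calls over all genes ran from 0 to 8 after DSS, 4 to 4104 on water, 0 to 537 for DSS in WT, 3 to 11 in the KO and 1 to 6 for the difference. Members called ran from 0 to 5 on water (5 without KO water replicate 4, 1 without KO water replicate 1) and were 0 elsewhere.

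Signs turned as follows (log2 scale, ranges over left-out libraries). After DSS, Ifit3 ran from -0.54 to 0.32. On water, Usp18 ran from -0.55 to 0.078 and Rsad2 from -0.27 to 0.16, and Rsad2 was 0.17 in both fits without KO water replicate 1 that used the water groups alone or DESeq2, and 0.24 at low mitochondrial share. For DSS in WT, Oas1a ran from -0.0017 to 0.19 and Usp18 from -0.17 to 0.31, and Usp18 was -0.0065 (DESeq2), -0.0022 (RLE), -0.016 (prefix block), -0.0045 (pairwise DESeq2), -0.014 (one prefix) and -0.0073 (DESeq2 without KO water replicate 1). For DSS in the KO, Ifit2 ran from -0.38 to 0.18 with 0.50 under the prefix block, and Ifih1 from -0.14 to 0.15 with 0.0042 without the filter and 0.17 under the prefix block. Usp18 there ran from -0.26 to 0.30, with 0.0033 without the filter, 0.31 under the replicate block, 0.37 under the prefix block and 0.16 at low mitochondrial share. For the difference of responses, Ifit1 ran from -0.27 to 0.48, with -0.085 in DESeq2 without KO water replicate 1 and -0.23 at low mitochondrial share. Isg15 ran from -0.37 to 0.40, with 0.059 under the replicate block and 0.38 at low mitochondrial share, and Usp18 from -0.32 to 0.30, with 0.10 and 0.38 under the replicate and prefix blocks.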
